A study of Mus musculus with 20 samples.

Results

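Imprinted genes are read mainly from the allele inherited from either the mother or the father. A list of 36 such genes was described here in adult mouse liver, and 30 of them had a row among the 22206 transcript clusters of the deposited expression table. Rows were found by the platform's gene symbol, and no member had over 1 row. The list holds 12 genes known as maternally expressed, 23 known as paternally expressed, and Gnas, whose transcript forms are imprinted in different directions. Of these, 9 maternally expressed genes, 20 paternally expressed genes and Gnas had a row. H19, Meg3, Slc22a3, Snrpn, Zrsr1 and Rtl1 had none under these symbols and are not analysed here. An array row sums the RNA of both alleles, so the parental origin of a transcript was not measured.

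The livers came from 20 wild-type C57BL/6NCr males, an inbred strain, taken at 4 to 5 months of age, with 1 array per mouse. There were 5 mice in each of 4 groups, which differed in the air temperature at which their dams lived through gestation, 10, 18, 23 or 30 °C, with 23 °C, normal housing, as the control. Before mating, dams spent 3 weeks at 30 °C, or 2 weeks at 18 or 10 °C, and sires 3 days at the same temperature. From the day of birth dams and pups of every group lived at 23 °C on chow, so the temperatures differed before birth and, for the parents, before conception. No litter, dam or batch is labelled, so the p-values measure the spread between these arrays, and any littermates would make them too small.

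Imprinting is set in the germ line by DNA methylation at control regions that carry different marks in egg and sperm. The marks survive the wave of demethylation after fertilisation because the zinc finger protein ZFP57, with its partner TRIM28, binds a short methylated motif and recruits methyltransferases. Imprinted genes lie in clusters that share a control region, often with a long noncoding RNA that silences its neighbours. Many of them act on fetal and placental growth: paternally expressed genes such as Igf2 tend to promote it, and maternally expressed ones such as Igf2r, Cdkn1c, Phlda2 and Grb10 tend to restrain it. In rodent liver many of these growth genes are shut down in the weeks after birth.

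The promoter sequences of 4 members are shown for orientation, because their rows or those of a neighbour return below. They are RefSeq windows on GRCm38.p6 of 300 bases that span the annotated start of transcription, written 5′ to 3′ on the strand of the gene. Capitals mark TGCCGC, the letters of the ZFP57 motif, or its reverse GCGGCA, found by a search of both strands, and no match shown overlaps another. Mest lies at chr6:30737800-30738099 on the plus strand and Nap1l5 at chr6:58907077-58907376 on the minus strand. Where a gene has several windows, a window with the most matches is shown. The Zdbf2 window shown, at chr1:63200108-63200407 on the plus strand, held 3 matches, the highest number among the members' windows. Another Zdbf2 window, at chr1:63273019-63273318, held 0. The Peg12 window, at chr7:62464461-62464760 on the minus strand, held none.
Mest: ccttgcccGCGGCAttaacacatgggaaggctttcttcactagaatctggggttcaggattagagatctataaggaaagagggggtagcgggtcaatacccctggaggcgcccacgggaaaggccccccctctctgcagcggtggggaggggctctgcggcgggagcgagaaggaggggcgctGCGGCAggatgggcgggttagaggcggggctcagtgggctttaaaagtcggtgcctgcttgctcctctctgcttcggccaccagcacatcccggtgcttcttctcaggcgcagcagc
Nap1l5: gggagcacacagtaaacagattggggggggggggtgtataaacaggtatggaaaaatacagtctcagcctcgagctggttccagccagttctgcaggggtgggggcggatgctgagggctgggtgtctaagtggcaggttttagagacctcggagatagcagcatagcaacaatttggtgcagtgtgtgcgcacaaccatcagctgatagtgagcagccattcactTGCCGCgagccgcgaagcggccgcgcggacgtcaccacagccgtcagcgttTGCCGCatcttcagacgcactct
Zdbf2: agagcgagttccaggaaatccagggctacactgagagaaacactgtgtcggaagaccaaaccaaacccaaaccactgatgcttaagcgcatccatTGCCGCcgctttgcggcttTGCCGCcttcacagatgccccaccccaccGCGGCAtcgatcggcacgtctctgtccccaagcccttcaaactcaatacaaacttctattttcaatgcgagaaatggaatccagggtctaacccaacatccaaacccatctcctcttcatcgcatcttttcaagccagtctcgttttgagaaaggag
Peg12: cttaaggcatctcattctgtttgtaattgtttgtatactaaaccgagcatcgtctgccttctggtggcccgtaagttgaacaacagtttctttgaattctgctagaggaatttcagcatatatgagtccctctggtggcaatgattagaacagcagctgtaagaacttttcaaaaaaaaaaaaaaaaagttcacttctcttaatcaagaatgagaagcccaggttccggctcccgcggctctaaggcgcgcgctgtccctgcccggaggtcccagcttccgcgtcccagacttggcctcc

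RefSeq windows were matched by symbol for 30 of the 36 listed genes, 47 windows in all. The motif was present in 11 of the 47 windows (23.4%) and in 3813 of 32851 windows of all genes (11.6%). By gene, it was found in 10 of 30 members (33.3%), against 13.1% of 27025 genes. The 10 were Grb10, Igf2, Meg3, Mest, Nap1l5, Nnat, Plagl1, Snrpn, Zdbf2 and Zim1. Windows with 2 or more matches made up 8.51% of the members' windows, which is 4 windows, and 1.53% of all windows. Among these 4 are Mest windows that start at chr6:30737800 and chr6:30737803, overlap and hold the same 2 matches. The same sequence thus enters the window counts more than once. Among the 9 members above background with a window Mest alone held the motif, whereas 6 of the 14 members near background did. Taking for each gene the window richest in CpG dinucleotides, the median was 17 CpG for members and 8 for all genes. The motif itself holds a CpG. The motif shares above were not matched for CpG content or for the number of windows per gene. The members ranged from 2 CpG at Slc22a18 to 48 at Ppp1r9a, and the Slc38a4 window held 5. The windows of Peg3 and Usp29, which are read in opposite directions on chromosome 7, shared 263 bases.

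Values are log2 expression as deposited after RMA, which corrects the background, equalises the array distributions and summarises probes. A row was called near background when its mean over the 20 arrays lay under 3.97, the 95th percentile of 1414 olfactory and vomeronasal receptor rows, genes that liver is not known to use. A row between 3.97 and 4.75, the highest array mean of the negative control rows, was called doubtful. By these limits 11 of the 30 members were above background. They were the maternally expressed Slc22a18, Igf2r, Ube3a and Ppp1r9a, the paternally expressed Slc38a4, Impact, Inpp5f, Mest, Kcnq1ot1 and Sgce, and Gnas. Igf2, Peg12 and Ndn, all paternally expressed and on chromosome 7, were doubtful. The remaining 16 were near background, with means of 2.06 to 3.79. These were Grb10, Cdkn1c, Phlda2, Zim1 and Ascl2 of the maternally expressed genes, and Peg3, Peg10, Mkrn3, Nap1l5, Plagl1, Nnat, Magel2, Zdbf2, Dlk1, Dio3 and Usp29 of the paternally expressed ones. Among all 22206 clusters, 10416 were above background, 1831 doubtful and 9959 near background.

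**Figure D1:**
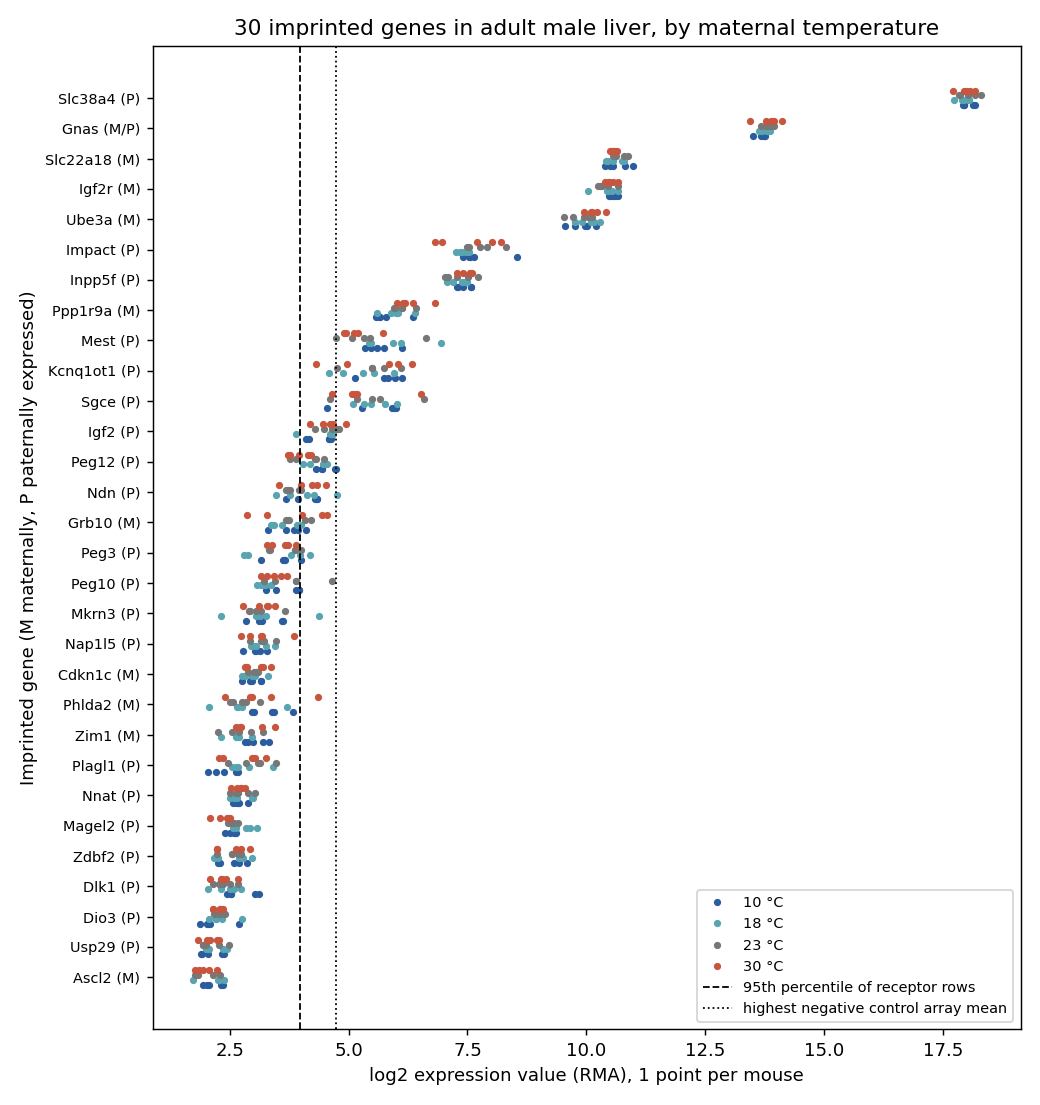
Log2 expression (horizontal axis) of the 30 imprinted genes with a row, 1 point per mouse, coloured by maternal temperature; M and P give the allele known to be expressed. The dashed line is the limit at 3.97 and the dotted line the negative control limit at 4.75; 11 genes have means right of both lines and 16 left of both, and the 4 colours overlap in nearly every row. Levels of different genes come from different probes and are not comparable along the axis.

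None of the 30 imprinted genes passed the test for a difference between maternal temperatures, at an adjusted p under 0.05. Each cluster was fitted with limma, with 1 mean per group over all 20 arrays and Benjamini-Hochberg adjustment over all 22206 clusters. In 10 °C against 23 °C offspring 0 of 30 members passed, beside 0.00901% of all clusters, which is 2 clusters (22 without 23 °C animal 23, and 0 under 6 other settings). In each of the other 5 pairwise comparisons 0 members passed and 0% of all clusters did. The same counts, 0 members and 0% of clusters, came from the F-test over the 4 groups and from the slope on maternal temperature. The smallest limma adjusted p of any member in these 8 tests was 0.276, for Plagl1, near background, between 10 °C and 23 °C offspring.

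At an unadjusted p under 0.05 the members stood at 2 of 30 (6.67%) in 10 °C against 23 °C offspring, where 11.6% of all clusters did. In 18 °C against 23 °C offspring the count was 1 of 30 (3.33%) beside 9.25%, and in 30 °C against 23 °C offspring it was 0 of 30 beside 4.84%. It was 3 of 30 (10%) in each of the other 5 tests. The share of all clusters there was 6.76% for 10 °C against 30 °C, 8.21% for 18 °C against 30 °C, 8.1% for 10 °C against 18 °C, 9.86% for the F-test and 8.15% for the slope. Among the 11 members above background the counts were 0, 0, 0, 1, 1 and 0 in the 6 pairwise comparisons taken in the same order, 0 in the F-test and 1 for the slope. The shares of all clusters above background were 13%, 9.98%, 4.58%, 7.41%, 10.5%, 10.3%, 11.6% and 8.87%. The shares of the 30 members thus lay below those of all clusters in the 3 comparisons with the controls and slightly above them in the others. With 30 genes, a single gene moves such a share by over 3 percentage points.

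**Figure D2:**
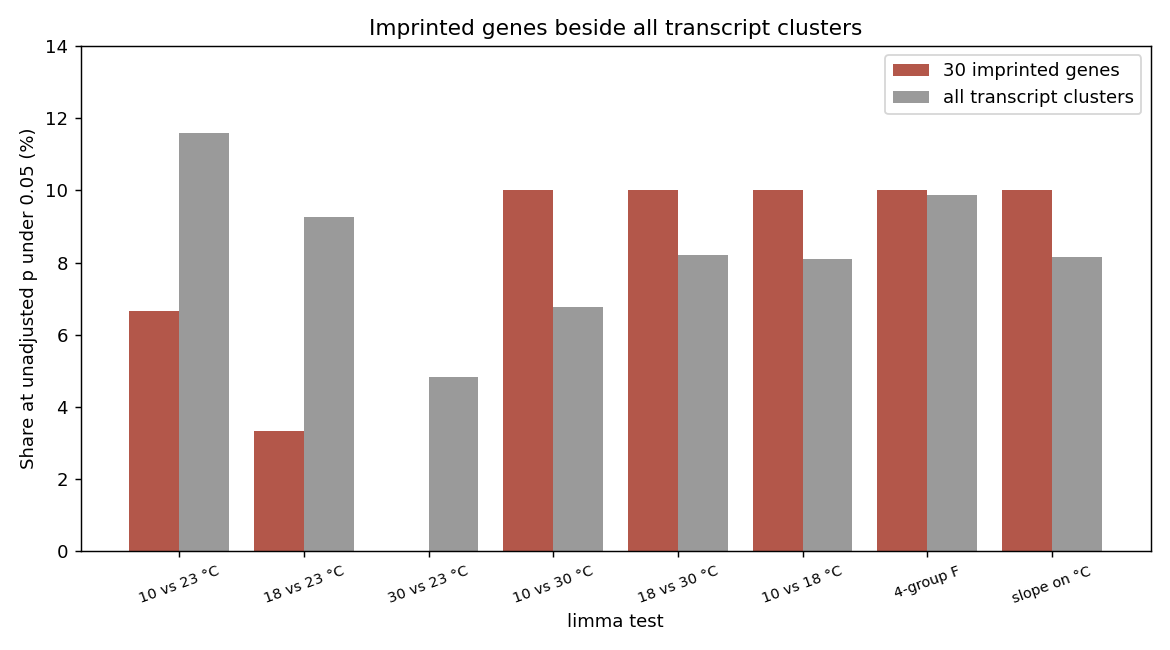
Share (%) of the 30 imprinted genes and of all 22206 transcript clusters with an unadjusted limma p under 0.05, in each of the 8 tests. The members' share is 6.67%, 3.33% and 0% in the comparisons with 23 °C, below that of all clusters, and 10% in the other 5 tests.

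The direction of the differences was mixed. In 10 °C against 23 °C offspring 13 members were higher and 17 lower, with a median log2 difference of -0.01. The split was 14 to 16 in 18 °C and 11 to 19 in 30 °C against 23 °C offspring, with medians of -0.01 and -0.02. With the animal number as a replicate block all 3 medians were above 0. In that fit only control animals 1 and 2 count toward these comparisons. Over all clusters the medians of these 3 comparisons were 0.0024, -0.0020 and -0.0055. The maternally expressed genes had 5 higher and 4 lower in 10 °C, 4 and 5 in 18 °C, and 7 and 2 in 30 °C against 23 °C offspring. The paternally expressed genes had 8 higher and 12 lower, 10 and 10, and 3 and 17 in the same comparisons. In 30 °C offspring the median difference from the controls was 0.12 for the 9 maternally and -0.05 for the 20 paternally expressed genes. All 3 comparisons share the control arrays. Of the paternally expressed genes 11 are near background, and the split was not tested.

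Slc38a4, on chromosome 15, encodes an amino acid transporter of the liver cell surface, and is paternally expressed in mouse placenta. Its log2 values were 18.18, 18.14, 17.94, 17.93 and 17.95 in 10 °C, 18.05, 17.74, 18.05, 17.89 and 17.95 in 18 °C, 17.83, 18.18, 18.03, 18.30 and 17.86 in 23 °C, and 18.07, 17.72, 17.95, 18.00 and 18.17 in 30 °C offspring. The groups overlapped throughout. The log2 differences from the controls were -0.01 (95% interval -0.27 to 0.25), -0.10 (-0.37 to 0.16) and -0.06 (-0.32 to 0.20) in 10, 18 and 30 °C offspring.

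Gnas, on chromosome 2, encodes the stimulatory G protein subunit through which glucagon and adrenaline receptors raise cyclic AMP. It measured 13.73, 13.50, 13.67, 13.75 and 13.73 in 10 °C, 13.63, 13.83, 13.80, 13.86 and 13.70 in 18 °C, 13.88, 13.78, 13.79, 13.68 and 13.94 in 23 °C, and 13.78, 13.94, 13.88, 14.11 and 13.45 in 30 °C offspring. The highest and the lowest of the 20 values were both in the 30 °C group. The differences from the controls were -0.14 (-0.39 to 0.12), -0.05 (-0.30 to 0.21) and 0.02 (-0.23 to 0.28). The row does not tell the transcript forms of the locus apart.

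Igf2r, on chromosome 17, is the maternally expressed receptor that binds IGF2 and sends it to the lysosome, and that carries lysosomal enzymes. Its values were 10.56, 10.50, 10.48, 10.67 and 10.61 in 10 °C, 10.54, 10.04, 10.66, 10.45 and 10.43 in 18 °C, 10.46, 10.32, 10.28, 10.25 and 10.66 in 23 °C, and 10.66, 10.47, 10.56, 10.39 and 10.47 in 30 °C offspring. Of the 10 °C values 4 lay within the range of the controls and 1 just above it. The mean was 10.56 ± 0.08 (SD, n = 5) in 10 °C and 10.39 ± 0.17 in 23 °C offspring, a difference of 0.17 (-0.09 to 0.43). In 18 and 30 °C offspring the difference was 0.03 (-0.23 to 0.29) and 0.12 (-0.14 to 0.38).

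Its ligand Igf2, a fetal growth factor made from the paternal allele, was doubtful, with 12 of its 20 values above the negative control mean of the same array. It read 4.17, 4.58, 4.58, 4.64 and 4.10 in 10 °C, 4.66, 4.60, 3.90, 4.67 and 4.68 in 18 °C, 4.66, 4.48, 4.75, 4.30 and 4.80 in 23 °C, and 4.62, 4.47, 4.19, 4.95 and 4.67 in 30 °C offspring. Animal 4 of the 18 °C group stood below its group. The differences from the controls were -0.18 (-0.54 to 0.18), -0.10 (-0.46 to 0.26) and -0.02 (-0.38 to 0.34).

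Apart from Igf2r, the maternally expressed brakes on growth named above were near background. Grb10, an adapter that dampens insulin and IGF1 receptor signalling, had group means of 3.67 to 3.89. Cdkn1c, an inhibitor of cyclin-dependent kinases, had means of 2.98 to 3.08, and Phlda2, which restrains the placenta, 2.76 to 3.33. Phlda2 was higher by 0.57 in 10 °C than in 23 °C offspring without passing (interval -0.04 to 1.17, limma adjusted p = 0.460). Ascl2, a transcription factor of trophoblast, had group means of 1.97 to 2.18. For genes so close to background RMA compresses differences, so a difference in RNA could be larger than the log2 values show.

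Slc22a18, a maternally expressed gene of the organic cation transporter family in the Kcnq1 domain of chromosome 7, measured 10.40, 10.50, 10.99, 10.57 and 10.81 in 10 °C, 10.74, 10.80, 10.56, 10.46 and 10.41 in 18 °C, 10.60, 10.80, 10.62, 10.88 and 10.57 in 23 °C, and 10.50, 10.56, 10.61, 10.55 and 10.64 in 30 °C offspring. The 30 °C arrays were the closest together, with an SD of 0.06 against 0.14 to 0.24 in the other groups. The differences from the controls were -0.04 (-0.31 to 0.23), -0.10 (-0.37 to 0.17) and -0.12 (-0.39 to 0.14). Kcnq1ot1, the paternally expressed noncoding RNA that silences genes of this domain on its own chromosome, varied more. It measured 6.13, 5.98, 5.14, 5.82 and 5.74 in 10 °C, 5.30, 5.54, 5.95, 4.58 and 4.89 in 18 °C, 5.74, 5.49, 4.75, 5.49 and 6.10 in 23 °C, and 4.96, 6.34, 5.85, 4.32 and 6.03 in 30 °C offspring. The 30 °C arrays alone spanned from 4.32 to 6.34. Its lead comparison was 10 °C over 18 °C, at 0.51 (-0.16 to 1.19, limma adjusted p = 0.719). It became 0.23 with the animal number as a replicate block. Over the 20 arrays, with group means removed, Slc22a18 and Kcnq1ot1 had r = -0.06 and rho = -0.06 (permutation p = 0.791 and 0.777), and r = 0.12 without the 2 arrays farthest from the median of Slc22a18. These are values from 55 pairs of members above background, and the adjusted p-values of this pair were 0.945 and 0.923. Kcnq1, in whose body Kcnq1ot1 lies, was near background, as were Cdkn1c and Phlda2.

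Ube3a, a ubiquitin ligase on chromosome 7, is maternally expressed in neurons and read from both alleles in most other cells. It measured 9.56, 10.01, 10.20, 9.98 and 9.76 in 10 °C, 10.10, 10.28, 10.16, 9.76 and 9.91 in 18 °C, 10.04, 9.53, 10.11, 9.96 and 9.72 in 23 °C, and 10.12, 10.09, 9.95, 10.41 and 10.23 in 30 °C offspring. Of the 30 °C values 3 were above the highest control. It gave the smallest p of any member between 30 °C and 23 °C offspring, at a difference of 0.29 ± 0.15 (SE, n = 5 per group, interval -0.02 to 0.60, limma adjusted p = 0.978). Ndn, which encodes the MAGE protein necdin and lies in the same chromosome region, was doubtful, with group means of 3.83 to 4.13. Mkrn3 and Magel2 of that region were near background.

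Impact, on chromosome 18, encodes a protein that limits the kinase GCN2, the sensor of amino acid shortage, and is paternally expressed in mouse. It measured 7.55, 7.63, 7.41, 8.55 and 7.54 in 10 °C, 7.34, 7.25, 7.39, 7.46 and 7.54 in 18 °C, 7.50, 7.53, 7.91, 8.32 and 7.77 in 23 °C, and 7.71, 8.01, 6.96, 6.82 and 8.21 in 30 °C offspring. Of the 18 °C values 4 lay below every control value, as did 2 of the 30 °C values and 1 of the 10 °C values. The highest 10 °C value, in animal 6, lay above every control value. The 18 °C difference from the controls was -0.41 (-0.92 to 0.10, limma adjusted p = 0.651). Inpp5f, a phosphoinositide phosphatase of which a brain transcript is imprinted, had group means of 7.32 to 7.48 and differences from the controls of 0.10, -0.01 and 0.15.

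**Figure D3:**
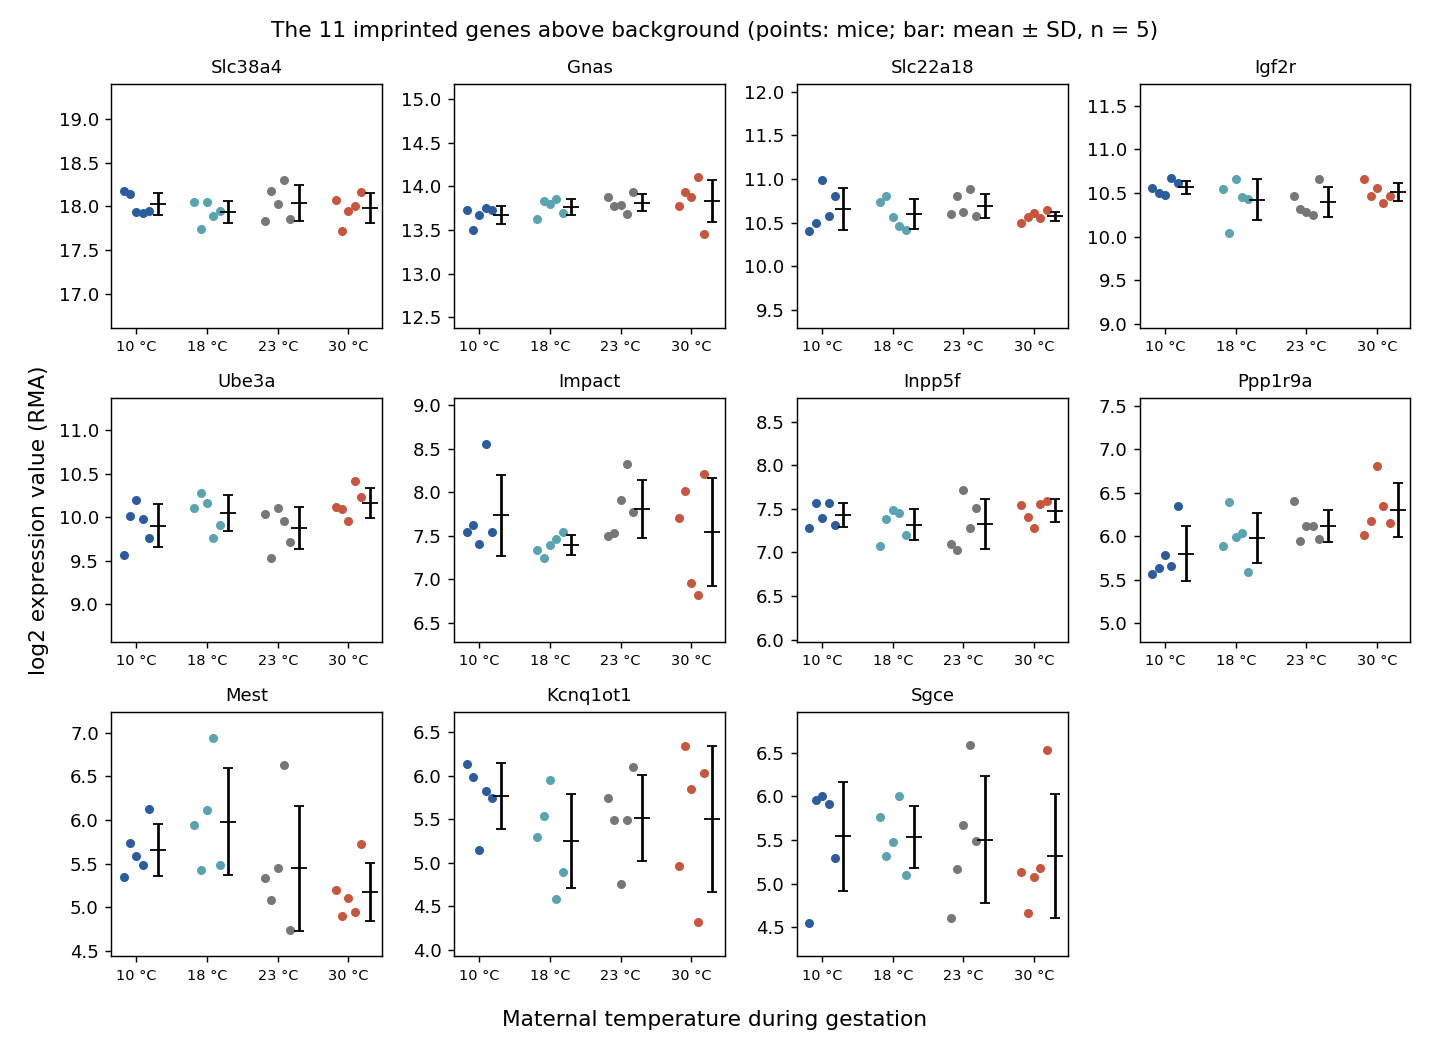
Log2 expression (vertical axis, the same span in each panel) of the 11 imprinted genes above background, with 5 mice per maternal temperature as points and the mean ± SD as bars. The points of the 4 groups overlap in each panel; the bars are short for Slc38a4, Gnas, Slc22a18 and Igf2r and long for Mest, Kcnq1ot1 and Sgce.

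Ppp1r9a, on chromosome 6, encodes neurabin, an actin-binding protein that anchors protein phosphatase 1, and is maternally expressed in extraembryonic tissue. It measured 5.57, 5.64, 5.79, 5.66 and 6.35 in 10 °C, 5.89, 6.39, 5.99, 6.04 and 5.59 in 18 °C, 6.41, 5.95, 6.12, 6.12 and 5.97 in 23 °C, and 6.01, 6.18, 6.81, 6.35 and 6.15 in 30 °C offspring. The group means were in the order of maternal temperature, at 5.80 ± 0.32, 5.98 ± 0.29, 6.11 ± 0.19 and 6.30 ± 0.31 (SD, n = 5). In 10 °C offspring 4 of 5 arrays lay under every 30 °C array, and animal 8 lay within the 30 °C range. The difference between 10 °C and 30 °C was -0.50 ± 0.18 (SE, interval -0.86 to -0.13), with an unadjusted p of 0.0099 and a limma adjusted p of 0.677. The slope was 0.25 ± 0.08 per 10 °C of maternal temperature (0.08 to 0.42, limma adjusted p = 0.470). Neither passed.

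Mest, also on chromosome 6, is a paternally expressed gene for a hydrolase-like protein that in mouse fat goes with the growth of fat cells. It measured 5.35, 5.74, 5.59, 5.48 and 6.13 in 10 °C, 5.94, 5.42, 6.11, 6.94 and 5.48 in 18 °C, 5.33, 5.08, 5.45, 6.63 and 4.74 in 23 °C, and 5.20, 4.90, 5.11, 4.94 and 5.72 in 30 °C offspring. In 30 °C offspring 4 of 5 values were under every 18 °C value, and animal 8 was not. The 18 °C mean of 5.98 ± 0.61 (SD, n = 5) exceeded the 30 °C mean of 5.17 ± 0.33 by 0.81 ± 0.29 (SE, interval 0.20 to 1.41), at an unadjusted p of 0.012 and a limma adjusted p of 0.474. It exceeded the control mean of 5.44 ± 0.71 by 0.53 (-0.08 to 1.14, limma adjusted p = 0.602). Without 18 °C animal 5 these became 0.57 and 0.29, and without 23 °C animal 17 the difference from the controls became 0.83. Copg2, a neighbouring gene for a coat protein subunit, was above background. Over the 20 arrays, with group means removed, the 2 rows had r = 0.17 and rho = 0.09 (permutation p = 0.535 and 0.744), and r = 0.19 without the 2 arrays farthest from the median of Mest. This was the only pair, of 18 pairs of neighbouring genes listed, in which both rows were above background.

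Sgce, which encodes a sarcoglycan and lies beside Peg10 on chromosome 6, had group means of 5.32 to 5.54. Its values ran from 4.55 to 6.00 in 10 °C, 5.10 to 6.01 in 18 °C, 4.60 to 6.59 in 23 °C and 4.66 to 6.53 in 30 °C offspring. Peg10, a gene derived from a retrotransposon and needed for the placenta, was near background. Its row read 3.17, 3.37, 3.07, 3.24 and 3.25 in 18 °C and 3.46, 3.90, 3.22, 4.66 and 3.90 in 23 °C offspring. These groups overlapped by a single control array, animal 15, at a difference of -0.60 ± 0.21 (SE, limma adjusted p = 0.396). Without control animal 17, whose value of 4.66 was the highest, the difference was -0.40. Between 10 °C and 18 °C offspring the difference was 0.49 (limma adjusted p = 0.571).

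Peg12 is a paternally expressed, intronless gene of chromosome 7 related to the FRAT proteins, which bind the kinase GSK3 in Wnt signalling. It measured 4.73, 4.44, 4.72, 4.44 and 4.31 in 10 °C, 4.04, 4.47, 4.55, 4.53 and 4.20 in 18 °C, 3.89, 4.31, 3.77, 4.30 and 4.49 in 23 °C, and 3.95, 3.76, 4.21, 3.73 and 4.15 in 30 °C offspring. All 10 °C values lay above all 30 °C values, and the other pairs of groups overlapped. Among all clusters 0.982% had no overlap between 10 °C and 30 °C offspring, and Peg12 was the only such member of 30. The mean was 4.53 ± 0.19 (SD, n = 5) in 10 °C and 3.96 ± 0.22 in 30 °C offspring, a difference of 0.57 ± 0.16 (SE, interval 0.24 to 0.90, limma adjusted p = 0.662). The slope was -0.29 ± 0.07 per 10 °C (interval -0.45 to -0.14), with an unadjusted p of 0.000602 and a limma adjusted p of 0.444. Peg12 also had unadjusted p-values under 0.05 for 10 °C against 23 °C (0.38), for 18 °C against 30 °C (0.40) and in the F-test, with limma adjusted p-values of 0.360, 0.525 and 0.388. The row was doubtful, with 3 of its 20 values above the negative control mean of the same array.

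The level of the array background ran partly with the groups. The background control rows averaged 3.71 ± 0.02 (SD, n = 5) in 10 °C, 3.71 ± 0.04 in 18 °C, 3.65 ± 0.02 in 23 °C and 3.66 ± 0.06 in 30 °C offspring. The negative control rows, which set the doubtful limit, did not follow this order. Their highest array means were in 23 and 30 °C offspring and their lowest in 18 °C offspring, with overlap between groups. Only the background control level was used as a covariate, so the values below do not adjust for the negative control level. With the background control level as a covariate the Peg12 slope was -0.27 (limma adjusted p = 0.779) and its 10 °C over 30 °C difference 0.54. The other 3 Peg12 tests no longer had an unadjusted p under 0.05, with 0.095 for 10 °C against 23 °C, 0.053 for 18 °C against 30 °C and 0.0504 for the F-test. The Ppp1r9a slope was 0.20 (limma adjusted p = 0.862), and its 10 °C against 30 °C difference was -0.40 at an unadjusted p of 0.052. The Mest difference between 18 °C and 30 °C was 0.99 (limma adjusted p = 0.392). That between 18 °C and 23 °C was 0.77, and its unadjusted limma p went from 0.083 to 0.039 (limma adjusted p = 0.847). Of the 18 member tests with an unadjusted p under 0.05, 7 were no longer under it with the covariate, the others of these being both Dlk1 tests and the Peg10 F-test.

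**Figure D4:**
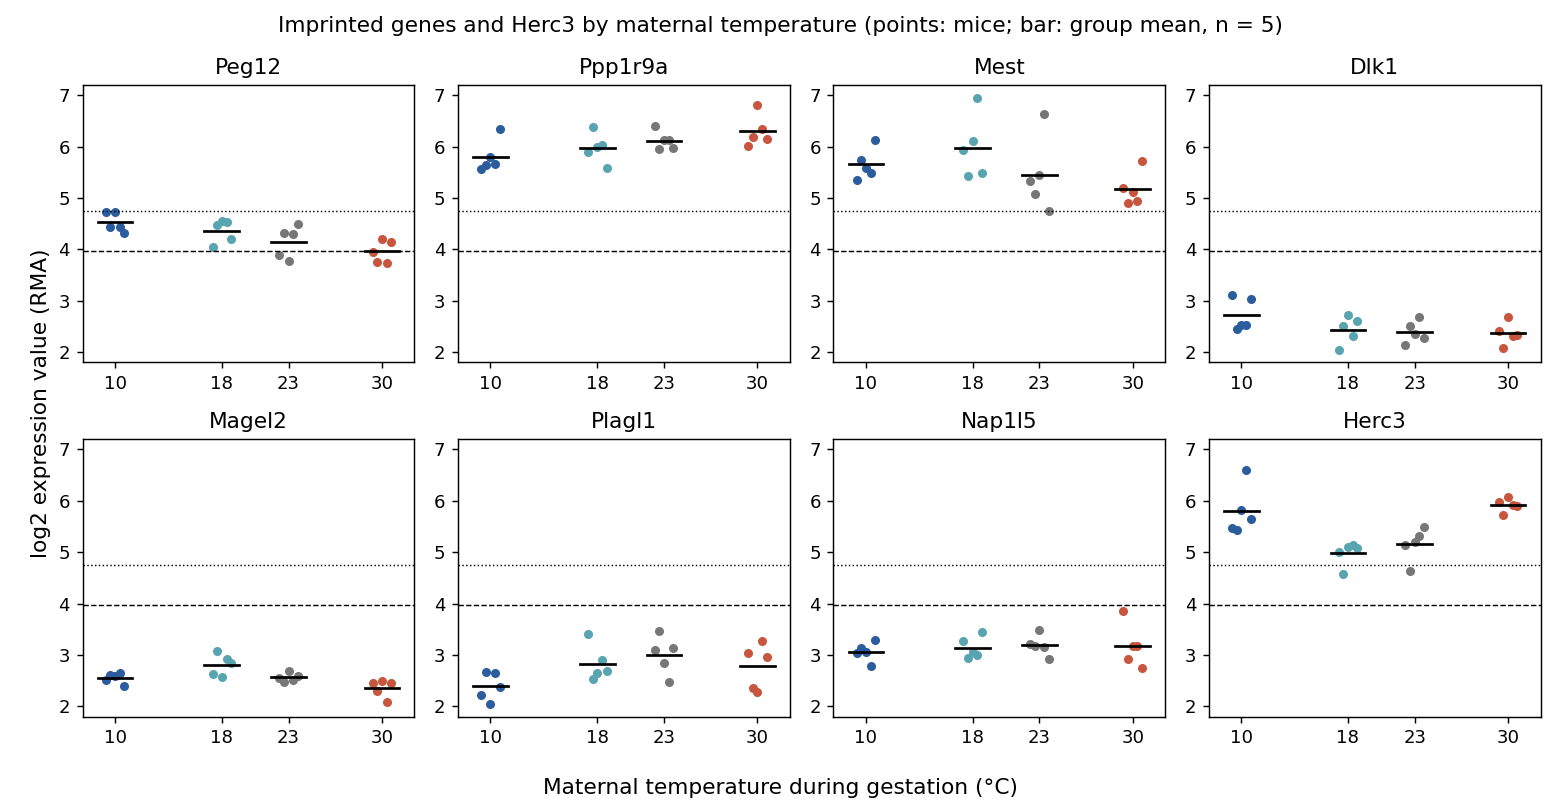
Log2 expression (vertical axis) against maternal temperature (°C, horizontal axis) for 7 imprinted genes and Herc3, the host gene of Nap1l5; points are mice, bars group means (n = 5), and the dashed and dotted lines the limits at 3.97 and 4.75. Group means of Peg12 go down and those of Ppp1r9a go up with temperature, with overlap between neighbouring groups; Dlk1, Magel2, Plagl1 and Nap1l5 lie under both limits. Herc3 is higher in 10 and 30 °C than in 18 °C offspring, and in 30 °C than in 23 °C offspring, with no overlap.

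Among the members near background, 5 had an unadjusted p under 0.05 in some test. Plagl1, a zinc finger transcription factor that controls growth in the fetus, read 2.22, 2.67, 2.05, 2.64 and 2.38 in 10 °C and 3.10, 3.47, 2.84, 2.47 and 3.13 in 23 °C offspring. Only control animal 17 lay within the 10 °C range, and the difference was -0.61 ± 0.22 (SE, interval -1.06 to -0.16, limma adjusted p = 0.276). Magel2, a MAGE protein gene of neurons, read 2.63, 3.07, 2.57, 2.93 and 2.84 in 18 °C and 2.45, 2.30, 2.50, 2.08 and 2.46 in 30 °C offspring. These groups did not overlap, as in 1.41% of all clusters, and differed by 0.45 ± 0.12 (limma adjusted p = 0.365). Magel2 also stood lower by 0.26 in 10 °C than in 18 °C offspring (limma adjusted p = 0.612), and its F-test gave a limma adjusted p of 0.397.

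Dlk1, a transmembrane relative of Notch ligands that holds back fat cell differentiation, was higher in 10 °C than in 30 °C offspring by 0.36 (limma adjusted p = 0.722). Its slope was -0.18 per 10 °C (0.576). Zim1, a zinc finger gene of the Peg3 domain, was higher in 10 °C than in 18 °C offspring by 0.39 (limma adjusted p = 0.612). Peg10, described above, was the fifth, with a limma adjusted p of 0.460 in the F-test. None of these 5 passed a test. The other 11 members near background, Peg3, Usp29, Nnat, Dio3, Zdbf2, Nap1l5, Mkrn3, Grb10, Cdkn1c, Phlda2 and Ascl2, had no p under 0.05 in any of the 8 tests.

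No overlap between groups was otherwise found in the members. The count was 0 of 30 in 10, 18 and 30 °C against 23 °C offspring, where 2.45%, 1.81% and 0.752% of all clusters did not overlap. It was also 0 of 30 between 10 °C and 18 °C offspring, beside 1.42%.

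**Figure D5:**
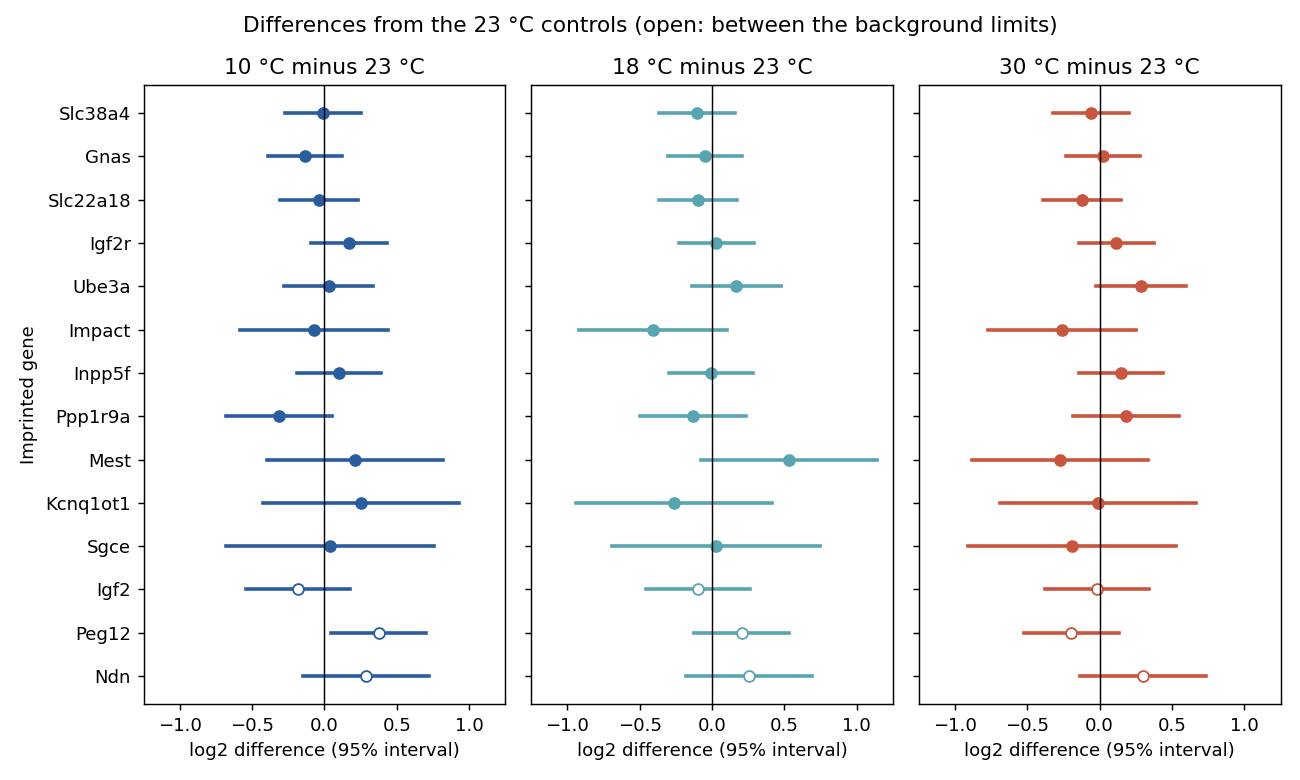
Log2 differences from the 23 °C controls (horizontal axis) with their 95% intervals from limma for the 14 imprinted genes not near background; open circles mark the 3 doubtful rows. The intervals hold 0 for all genes except Peg12 in 10 °C offspring, and are widest for Sgce and Kcnq1ot1.

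The members differed in how tightly the mice of a group lay together. Ranked among the 10416 clusters above background by the SD within groups, Gnas stood at percentile 3.99, Igf2r at 5.32, Slc38a4 at 5.49 and Slc22a18 at 6.83. Their SDs were 0.15 to 0.17 on the log2 scale, against a median of 0.29 for these clusters. Inpp5f and Ube3a lay at percentiles 13.2 and 21.3, and Ppp1r9a near the middle at 47.4. Impact stood at 86.2, Mest at 93.7, Kcnq1ot1 at 95.7 and Sgce at 96.5, with SDs of 0.42 to 0.62. This order went with level. Gnas, Igf2r, Slc38a4 and Slc22a18 had the highest means of the 11 genes, 10.5 to 18.0. Mest, Kcnq1ot1 and Sgce had the lowest, 5.47 to 5.56. The percentiles were not matched for level, so they do not set these genes apart from others of like level. The 95% intervals of the pairwise differences had widths of 0.26 on either side for Gnas and 0.72 for Sgce. Over the 11 genes and 6 comparisons the interval bounds reached from -0.94 to 1.41.

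Some mice stood at the edge of their group in several of the 11 genes above background. Animal 8 of the 30 °C group had the highest value of its group in 6 of the 11 genes, Slc38a4, Slc22a18, Impact, Inpp5f, Mest and Sgce. Animal 17 of the 23 °C group was highest in 5, all but Inpp5f of the same genes. Animal 2 of the 10 °C group was lowest in 6 of the 11, Slc22a18, Ube3a, Inpp5f, Ppp1r9a, Mest and Sgce. No test of these counts was made.

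Other genes of the system were described from lists. Of 43 further imprinted genes 35 had a row and 22 were above background, and 0 passed in any test. At an unadjusted p under 0.05 stood 4 of the 35 (11.4%) in 10 °C, 1 (2.86%) in 18 °C and 2 (5.71%) in 30 °C against 23 °C offspring, beside 11.6%, 9.25% and 4.84% of all clusters. The counts in 10 °C against 30 °C, 18 °C against 30 °C, 10 °C against 18 °C, the F-test and the slope were 0, 2, 3, 1 and 0, beside 6.76%, 8.21%, 8.1%, 9.86% and 8.15% of all clusters. Nap1l5, near background in all 20 arrays, lies inside Herc3, a ubiquitin ligase gene of chromosome 6, which was picked out after its values were seen. Herc3 measured 5.48, 5.44, 5.83, 6.60 and 5.64 in 10 °C, 5.01, 4.58, 5.11, 5.15 and 5.09 in 18 °C, 5.14, 4.63, 5.19, 5.31 and 5.49 in 23 °C, and 5.97, 5.73, 6.07, 5.92 and 5.89 in 30 °C offspring. All 30 °C values lay above all 18 °C and all 23 °C values, where 1.41% and 0.752% of all clusters did not overlap. All 10 °C values lay above all 18 °C values, where 1.42% of all clusters did not overlap. The differences from the controls were 0.65 in 10 °C and 0.76 in 30 °C offspring (limma adjusted p = 0.205 and 0.978). The 18 °C mean was lower than the 30 °C mean by a log2 difference of -0.93 ± 0.19 (SE, n = 5 per group, limma adjusted p = 0.267), which passed without 10 °C animal 6 (limma adjusted p = 0.043). The F-test gave an unadjusted p of 9.7e-05 and a limma adjusted p of 0.199. Nap1l5 had group means of 3.06, 3.14, 3.19 and 3.17 in the order of temperature.

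Of 17 genes that set or keep the imprint all had a row and 11 were above background, among them Dnmt1, the maintenance methyltransferase, Dnmt3a, Trim28, Zfp445 and Ctcf. Dnmt3b, Dnmt3l, Uhrf1, Zfp57, Dppa3 and Tet1 were near background. None passed. At an unadjusted p under 0.05 stood 1, 0 and 1 of the 17 in 10, 18 and 30 °C against 23 °C offspring. The shares of all clusters there were 11.6%, 9.25% and 4.84%. Between 10 °C and 18 °C offspring it was 1, beside 8.1%, and in the other tests 0, beside 6.76% to 9.86%. That gene was Dnmt3l, lower in 10 °C offspring (limma adjusted p = 0.516). Ehmt2, a histone H3 lysine methyltransferase, had an unadjusted p under 0.05 in 10 °C and 30 °C against 23 °C offspring, at differences of 0.35 and 0.36 (limma adjusted p = 0.364 and 0.978). Of 18 partners of the IGF system 16 had a row and 11 were above background, and 0 passed. At an unadjusted p under 0.05 stood 2, 1 and 0 of the 16 in 10, 18 and 30 °C against 23 °C offspring, beside 11.6%, 9.25% and 4.84% of all clusters. In 10 °C against 30 °C, 18 °C against 30 °C and 10 °C against 18 °C it was 1, 1 and 3, beside 6.76%, 8.21% and 8.1%. It was 1 in the F-test and 1 for the slope, beside 9.86% and 8.15%. Igf1, the growth factor that liver makes after birth, had no p under 0.05. Igfbp7, a secreted binding protein of vessel walls, had means of 13.95 ± 0.30 (SD, n = 5) at 10 °C, 13.99 ± 0.19 at 18 °C, 13.65 ± 0.12 at 23 °C and 13.63 ± 0.12 at 30 °C. Its 4 differences between colder and warmer groups were 0.30 to 0.36, with limma adjusted p-values of 0.414 to 0.719.

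The tissue label was checked against marker genes. All 6 hepatocyte markers, such as Alb and Hnf4a, were above background, as were all 5 of sinusoidal endothelium, all 5 of Kupffer cells and 4 of 7 of stellate cells. Of the markers of other cells, 1 of 4 for cholangiocytes (Sox9) and 1 of 3 for muscle (Ckm) were above background, and 0 for lymphocytes, fat, exocrine pancreas and islets. None passed in any test. At an unadjusted p under 0.05 in some test stood 3 of 7 stellate, 2 of 5 sinusoidal endothelial, 2 of 5 Kupffer and 1 of 4 cholangiocyte markers. For the other cell types it was 0. The like share of all clusters over the 8 tests together was not counted. The summed level of the Kupffer markers ranged over log2 10.72 to 11.36 in 10 °C, 10.41 to 11.59 in 18 °C, 9.90 to 11.01 in 23 °C and 10.08 to 11.39 in 30 °C offspring. Whether it bears on the members' values was not tested. In a whole liver sample, fewer cells of a type and less RNA per cell cannot be told apart.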

How the data were processed

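Liver RNA of 20 mice was measured on expression arrays, 1 per mouse, so precision is limited by their number. The deposited values are log2 expression, made by the authors with RMA and the Transcriptome Analysis Console, per the submitters' processing notes; versions, settings and genome build are not given in the sources used here. Quantile normalisation makes arrays alike, so a shift of all transcripts would not be seen. Array medians were 4.46 to 4.56, correlations between arrays 0.987 to 0.993, and 0 arrays were identical. Of 28846 rows 6640 were control rows. Of the 22206 transcript clusters 19572 had 1 gene symbol, 0 several and 2634 none. All 30 members with a row matched a RefSeq symbol.

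Every cluster entered a linear model with 1 mean per group in limma 3.58.1 under R 4.3.3 (lmFit, then eBayes), giving 6 pairwise comparisons, an F-test and a slope per 10 °C, two-sided, with Benjamini-Hochberg adjustment within each test and a threshold of 0.05. Intervals are 95%. Deviations of neighbouring genes were compared over 20 arrays by 100000 permutations within groups. The code was tested on simulated data. Alternatives were a trend with robust variance, a background filter, 2-group fits, the background level as covariate, array weights, centring, a replicate block and each array left out.

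Every member is accounted for. Values per mouse are given for the 6 members with the highest means and for the member not near background with the smallest p in each test, with a few more chosen later, and members with an unadjusted p under 0.05 are named. Members and lists were chosen with earlier results of these data known.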

Additional observations from a re-analysis of the deposited data

Results flagged for a closer look

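Within each group of 5 mice the highest and the lowest value of each of the 30 genes were compared with the rest by Dixon's ratio of gap to range, over 120 groups, and 6 values stood apart. Chance alone would mark about 1 in 20 groups, which is about the number marked here. Above background, Ppp1r9a measured 6.35 in 10 °C animal 8, where the other 4 mice had 5.57 to 5.79. Impact measured 8.55 in 10 °C animal 6, against 7.41 to 7.63. Sgce measured 6.53 in 30 °C animal 8, against 4.66 to 5.18, and this mouse was also the highest of its group for Mest and Impact. Igf2, doubtful, measured 3.90 in 18 °C animal 4, against 4.60 to 4.68. Near background, Ascl2 measured 1.72 in 18 °C animal 5, against 2.25 to 2.38, and Dio3 measured 2.69 in 10 °C animal 2, against 1.88 to 2.09. No other mouse than these 6 stood apart from its group in any of the 30 genes.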

How the results depend on the processing

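In all 27 alternative settings 0 of the 30 members passed in any test they gave, and the smallest limma adjusted p was 0.185, for Plagl1 between 10 °C and 23 °C offspring with array weights. Of 529 alternative values for 20 named signed differences 310 moved from the reported value, and 0 of these changed sign. The 20 were picked from these same data, most of them for a small p, so their signs had little room to change. A single value passed, that of Herc3 between 18 °C and 30 °C offspring without 10 °C animal 6 (-0.93, limma adjusted p = 0.043). Leaving out 1 array at a time, the Peg12 slope ran from -0.32 to -0.27, the Ppp1r9a difference between 10 °C and 30 °C from -0.63 to -0.37, the Plagl1 difference from -0.74 to -0.49, that of Mest between 18 °C and 30 °C from 0.57 to 0.94, and that of Peg10 between 18 °C and 23 °C from -0.76 to -0.40. By the negative control limit 19 members, in place of 16, were under background. Signs of member differences changed in up to 10 of 30 with the replicate block, 8 with the background covariate, 3 with centring and 4 with weights. The block also turned the members' median difference between 10 °C and 23 °C offspring from -0.01 to 0.11, that between 18 °C and 23 °C from -0.01 to 0.02, and that between 30 °C and 23 °C from -0.02 to 0.0048. With array weights the first was 0.00032, and with centring the second was 0.0039. In the block fit control animals 15, 17 and 23 and 18 °C animal 3 carry no weight, because no other group has their numbers. Its differences from the controls therefore rest on control animals 1 and 2. Animal numbers shared between groups did not pair the mice: deviations of 11 same-number pairs had correlations of -0.23 to 0.19, and 1 was over 0.1. With the number as a replicate block 0 members passed, and the smallest limma adjusted p was 0.639, for Mest between 18 °C and 30 °C offspring (1.12). Counts over all clusters moved between 0 and 22 in 10 °C against 23 °C offspring, the highest without 23 °C animal 23, between 0 and 7 in the F-test, and within 0 to 3 in the other tests. The causes were not tested. No symbol had a further row to try.

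These 5 mice per group limit what can be seen: pairwise intervals reached 0.26 to 0.72 on either side among the 11 genes above background, and 19 members were doubtful or near background, where RMA compresses differences. Litters, allele of origin and methylation were not measured, and fetal or newborn liver is not analysed here.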

Other observations

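Liver genes that are silenced after birth were listed with their repressors, since several imprinted growth genes follow the same time course. Of 10 listed 8 had a row and 2 were above background, and 0 passed in any test. In 10, 18 and 30 °C against 23 °C offspring 3, 4 and 3 were higher and 5, 4 and 5 lower. At an unadjusted p under 0.05 stood 2 of the 8 (25%) in each, beside 11.6%, 9.25% and 4.84% of all clusters. Zhx2, a listed repressor above background, had group means of 9.99 to 10.14. Afp, the fetal serum protein alpha-fetoprotein, and Gpc3, a cell surface proteoglycan that binds growth factors, were near background. Afp had a mean of 4.20 ± 0.46 (SD, n = 5) in 23 °C offspring and of 3.56 to 3.65 in the other groups. Its differences from the controls were -0.55, -0.57 and -0.64 in 10, 18 and 30 °C offspring, with limma adjusted p-values of 0.308, 0.436 and 0.978. Gpc3 had a mean of 3.60 ± 0.42 in 23 °C offspring and of 3.03 to 3.14 in the others, with differences of -0.46, -0.54 and -0.58 (limma adjusted p = 0.403, 0.470 and 0.978). All these differences rest on the same 5 control arrays.

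The 11 imprinted genes above background were also compared with each other over the 20 arrays, with group means removed, a step added after the values had been seen. Of 55 pairs 0 passed adjustment, 3 had an unadjusted permutation p under 0.05, and 29 had a positive r, with a median r of 0.0024. Mest and Sgce had r = 0.64 and rho = 0.60 (permutation p = 0.00477 and 0.0102, adjusted p = 0.262 and 0.282), and r = 0.48 without the 2 arrays farthest from the median. Slc38a4 and Gnas had r = -0.60 and rho = -0.69 (permutation p = 0.0109 and 0.00290, adjusted p = 0.299 and 0.159), and r = -0.56 without 2 arrays. Gnas and Sgce had r = -0.58 but rho = -0.34 (permutation p = 0.0255 and 0.174, adjusted p = 0.433 and 0.598), and r = -0.45 without 2 arrays.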
